A study of Mus musculus with 3 samples.

Results

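The 9 naive pluripotency factors Nanog, Esrrb, Zfp42, Tfcp2l1, Tbx3, Prdm14, Nr0b1, Dppa3 and Nr5a2 were followed in single mouse embryonic stem (ES) cells before and after loss of cohesin. They were taken by symbol from the count tables, which held 52636 genes, and all 9 had a row in each table. The cells were JM8.N4 ES cells of the C57BL/6N strain, a feeder-free laboratory line kept in serum with LIF and the 2i inhibitors PD0325901 (MEK) and CHIR99021 (GSK3), in which CRISPR editing had added an auxin-induced degron (AID) to RAD21, a subunit of cohesin. Every cell of the study, controls included, carried this fusion, so that all comparisons are within 1 edited line. Control cells were left untreated and auxin cells received 500 μM auxin for 6 h, which degrades the RAD21 protein. Each of 3 replicates held both conditions, and its cells were sorted into plates and read by Smart-SCRB, an assay that counts each captured transcript once by its unique molecular identifier (UMI).

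Naive pluripotency is the state of the inner cell mass and early epiblast. In culture it is held by LIF, which signals through STAT3, and by the 2i inhibitors, which block the ERK cascade and relieve repression by TCF7L1. The factors described here act together to hold that state, and most of them are switched off when ES cells move to the formative and primed states, which gain Otx2, Fgf5, Pou3f1, Dnmt3a and Dnmt3b.

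In the mm10 (GRCm38) annotation, Nanog lies on chromosome 6 at 122707489 to 122714633, with Dppa3 at 122626410 to 122630272 on the same strand, so that 77217 bases separate the genes. Tfcp2l1 (118627945 to 118685168), Nr5a2 (136842571 to 136960448) and Prdm14 (13113457 to 13127163) share chromosome 1, at distances of 18.2 Mb and more. Zfp42 is on chromosome 8 (43295063 to 43306980), Esrrb on 12 (86361117 to 86521628), Tbx3 on 5 (119670669 to 119684724) and Nr0b1 on X (86191764 to 86195947). Exons of Tbx3 overlap the antisense gene Tbx3os1, and exons of Tfcp2l1 overlap the small nuclear RNA gene Gm23497, so reads of these genes may be shared. Of the processed copies, Dppa3-ps held 30 UMIs in replicate 1 and 0 in replicates 2 and 3, and Nanog-ps1 and Nanog-ps2 held 1 and 0 UMIs in all.

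RefSeq promoters (GRCm38.p6) were at hand for 6 of the 9 genes. The 250 bases before the start are shown for Nanog and Zfp42, which hold the octamer core ATGCAAA, and for Tfcp2l1, the gene that differed most between replicates and which holds the Kruppel-like factor site GGGCGTG. Capitals mark these motifs on either strand, and each line reads 5′ to 3′ on the strand of the gene. They are chr6:122707239-122707488 (plus strand) for Nanog, chr8:43307010-43307259 (minus strand) for Zfp42 and chr1:118627695-118627944 (plus strand) for Tfcp2l1.
Nanog: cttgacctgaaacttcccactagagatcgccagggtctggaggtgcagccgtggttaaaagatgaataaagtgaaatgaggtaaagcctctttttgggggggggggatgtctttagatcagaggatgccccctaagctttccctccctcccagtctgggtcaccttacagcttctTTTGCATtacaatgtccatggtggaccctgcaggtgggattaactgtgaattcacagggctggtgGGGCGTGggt
Zfp42: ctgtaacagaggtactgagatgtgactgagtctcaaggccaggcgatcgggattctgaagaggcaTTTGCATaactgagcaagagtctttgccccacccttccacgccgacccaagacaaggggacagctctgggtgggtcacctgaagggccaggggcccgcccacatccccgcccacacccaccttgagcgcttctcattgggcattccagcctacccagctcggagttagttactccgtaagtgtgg
Tfcp2l1: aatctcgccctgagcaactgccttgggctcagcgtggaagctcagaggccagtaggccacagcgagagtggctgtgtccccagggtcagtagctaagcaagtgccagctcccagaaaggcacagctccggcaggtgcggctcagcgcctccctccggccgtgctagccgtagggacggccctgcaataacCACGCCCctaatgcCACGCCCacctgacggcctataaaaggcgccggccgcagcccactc
The octamer core was present in 4.63% of 32851 promoter windows of 300 bases and in 2 of the 6 factors. It began 75 bases before the start of Nanog and 185 bases before that of Zfp42, both on the reverse strand. GGGCGTG was present in 8.44% of the windows and in Nanog, Tfcp2l1 and 1 of the Nr5a2 starts. The nuclear receptor site AAGGTCA (4.72% of windows) and the paired TFCP2L1 site (3.44%) were in none of the 6. Both strands were searched, no matches overlapped, and a match describes letters only.

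After removal of cells with 2600 or fewer detected genes, 1167 cells on 14 plates remained. Replicate 1 held 168 control and 169 auxin cells, replicate 2 held 371 and 290, and replicate 3 held 85 and 84. Median UMIs per cell ran from 72317 to 187088, and the sums of UMIs per replicate and condition from 6064936 to 50448320. In replicate 3, 2 further plates with 168 cells have conditions that the deposited annotation and the source values of the study give differently, and were left out. Replicate 1 was read on another instrument than replicates 2 and 3, and 170 of 7700 genes at 10 CPM (UMIs of a gene scaled to the library total) or more in replicate 1, Sox2 among them, had 0 UMIs in both later replicates. None of the 9 factors was among the 256 genes that fell below an eighth of their replicate 1 level in replicate 3. Pou5f1, the core pluripotency factor, had 273 and 228 CPM in replicate 1 and 5.81 to 12.5 CPM in the others, so it cannot serve as a marker across replicates here. Of the 8 ES cell markers listed, 6 were tested. Plates of replicate 2 were all lower for Pou5f1 and Dppa5a (2.59-fold), as for 5.61% of all genes tested. They were all higher for Utf1 (8.78-fold) and Lin28a (6.55-fold), as for 9.18% of all genes. They overlapped the others for Sall4 (96.7 to 184 CPM in the 6 sums) and Tdgf1 (508 to 642 CPM). Rad21 mRNA had 19.3 to 45.2 CPM and did not pass the test between conditions (log2 fold change 0.04 ± 0.31 SE, edgeR adjusted p = 1.00), but auxin acts on the protein, so this does not check the labels.

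Replicate 2 stood apart from replicates 1 and 3 in nearly every factor. Nanog, Esrrb, Zfp42, Tfcp2l1, Tbx3, Prdm14 and Nr0b1 were lower in all 8 plates of replicate 2 than in all 6 plates of the other replicates, whereas plates overlapped for Dppa3 and Nr5a2. These were 7 of 9 factors, against 5.61% of the 17514 genes tested. Of the 9, 8 were at least 2-fold lower (9.14% of all genes) and 5 at least 4-fold lower (3.57%). The median log2 ratio of replicate 2 over the mean of replicates 1 and 3, on CPM averaged over both conditions, was -2.89 for the 9 factors (7.40-fold lower) and 0.33 for all genes tested. Since 1 replicate was set against 2, no test was made, and anything handled replicate by replicate cannot be told apart from replicate. Replicates 2 and 3 shared an instrument. Replicate 3 over replicate 1 had a median log2 ratio of 0.08 for the 9 factors, with Nr5a2 at 2.26, and of 0.56 for all genes tested, and the part of the instrument was not tested. In summed libraries, fewer expressing cells and less RNA per cell cannot be told apart either, and the single cells are described further on.

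**Figure D1:**
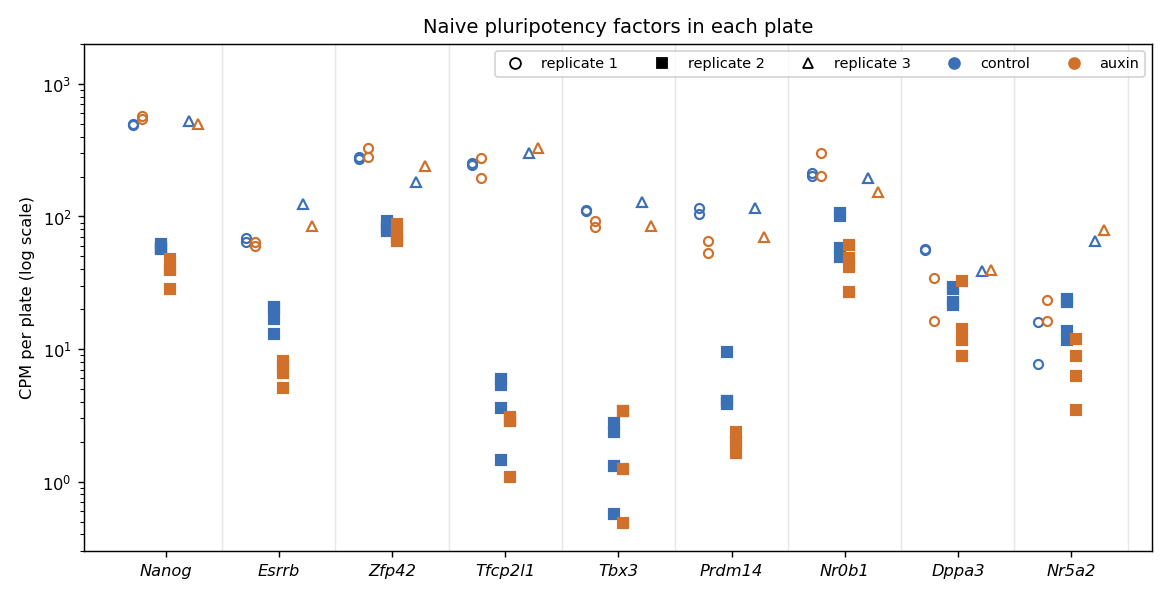
CPM of each factor in each of the 14 plates (log scale, 1 point per plate), control in blue and auxin in orange, replicates by symbol. The replicate 2 squares lie below all other points for 7 factors, and overlap the others for Dppa3 and Nr5a2.

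Nanog, the homeobox factor that lowers the threshold for self-renewal, had 496 CPM in control and 563 CPM in auxin cells of replicate 1. Replicate 3 had 525 and 495 CPM, and replicate 2 had 58.6 and 38.9 CPM. Its plates ran from 28.3 to 61.6 CPM in replicate 2 and from 489 to 577 CPM elsewhere, which placed replicate 2 10.9-fold lower (log2 ratio -3.44). Replicates 1 and 3 differed from each other by a log2 ratio of only -0.05.

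Tfcp2l1, a target of LIF and STAT3 signalling and a grainyhead-family transcription factor, showed the widest gap. It had 248.9 and 239 CPM in control and auxin cells of replicate 1, 300 and 329 CPM in replicate 3, and 4.10 and 2.52 CPM in replicate 2. The log2 ratio was -6.43, or 86.2-fold. Tbx3, a T-box factor that acts beside Nanog, followed with 111 and 88.3 CPM in replicate 1, 129 and 84.1 CPM in replicate 3, and 1.75 and 2.12 CPM in replicate 2, which rest on 86 and 107 UMIs (log2 ratio -5.72, 52.7-fold). Prdm14, which represses FGF signalling and DNA methyltransferase genes in ES cells, had 109 and 59.2 CPM in replicate 1, 116 and 69.8 CPM in replicate 3, and 5.34 and 2.00 CPM in replicate 2 (log2 ratio -4.70, 26.0-fold). These 3 genes were the factors at least 16-fold lower in replicate 2, as were 0.697% of all genes tested.

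The orphan nuclear receptors differed from each other. Esrrb, a target relieved from TCF7L1 repression by GSK3 inhibition, had 66.8 and 61.7 CPM in replicate 1, 125 and 84.2 CPM in replicate 3, and 17.7 and 6.78 CPM in replicate 2 (log2 ratio -2.89). Nr0b1, the receptor DAX1, had 207 and 250 CPM in replicate 1, 195 and 152 CPM in replicate 3, and 78.6 and 44.5 CPM in replicate 2 (log2 ratio -1.74). Nr5a2, an activator of Pou5f1 in the epiblast, followed no such split, with 11.5 and 19.7 CPM in replicate 1, 17.9 and 7.69 CPM in replicate 2, and 65.5 and 79.1 CPM in replicate 3. Its log2 ratio of replicate 2 was -0.36 over replicate 1 and -2.62 over replicate 3, and replicate 3 was 4.78-fold above replicate 1.

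Zfp42 and Dppa3 were lowered less. Zfp42 (REX1), a widely used reporter of naive cells, had 275 and 303 CPM in replicate 1, 184 and 240 CPM in replicate 3, and 83.5 and 73.1 CPM in replicate 2, 3.15-fold lower. Dppa3 (STELLA), a maternal-effect protein that protects against DNA methylation changes, had 56.4 and 24.8 CPM in replicate 1, 38.6 and 39.5 CPM in replicate 3, and 25.4 and 17.3 CPM in replicate 2 (log2 ratio -0.87). Its plates ran from 8.81 to 32.9 CPM in replicate 2 and from 16.4 to 57.2 CPM elsewhere, and overlapped.

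The same split was seen in the share of cells with at least 1 UMI, after each cell had been thinned to 20000 UMIs so that depth was equal. In this set of 1140 cells, Tfcp2l1 was found in 90.5% of control cells of replicate 1 (95% exact binomial interval 85.0 to 94.5), in 91.7% of replicate 3 (83.6 to 96.6) and in 4.96% of replicate 2 (2.96 to 7.72). Nanog was found in 97.0%, 98.8% and 47.7% of control cells of replicates 1, 3 and 2, and Tbx3 in 75.6%, 81.0% and 4.68%. Without thinning, the share in replicate 2 control cells was 13.2% for Tfcp2l1, 65.8% for Nanog and 5.39% for Tbx3, so the gap remained at full depth. Dppa3 had UMIs in a minority of cells everywhere, with 19.6%, 17.4% and 26.2% of control cells of replicates 1, 2 and 3. Nr5a2 was found in 11.3%, 20.4% and 61.9% in the same order. No cell type that should lack these genes was sampled, and 10 genes of other organs summed to 3.91 to 12.5 CPM in the 6 sums. Of these, Cd3e was lower in all plates of replicate 2 (0.41 to 2.05 against 4.99 to 9.73 CPM), and the share of stray reads was not tested. These intervals cover counting error only.

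**Figure D2:**
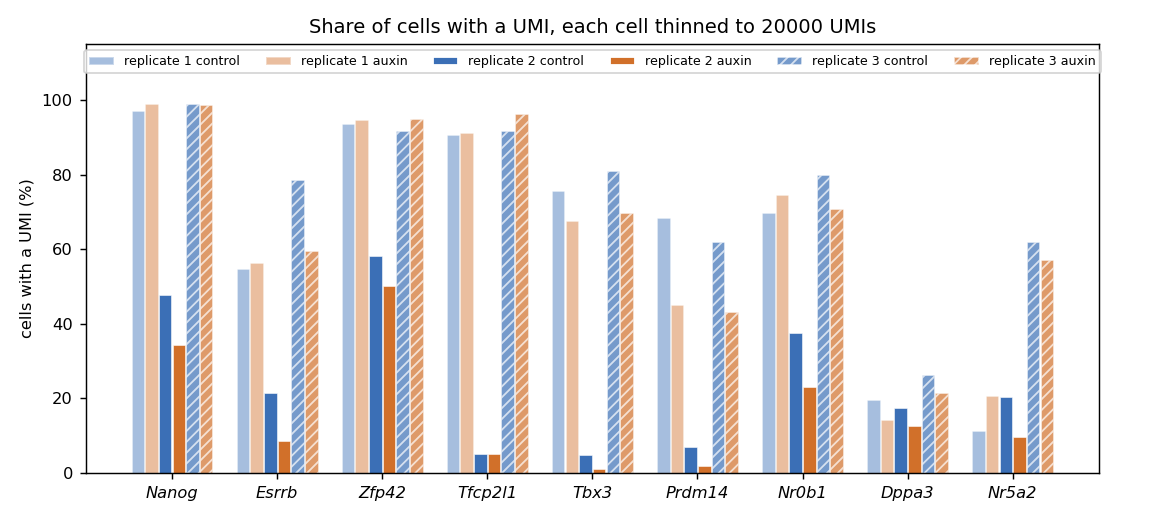
Percent of cells with at least 1 UMI of each factor (bars, from 0) in control (blue) and auxin (orange) cells of the 3 replicates, each cell thinned to 20000 UMIs. Replicate 2 has the shortest bar within each condition for every factor except Nr5a2 in control cells, with 4.96% for Tfcp2l1 in control cells against 90.5% in replicate 1.

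Counted together, the 9 factors gave a median of 29, 4 and 33 UMIs per 20000 across control cells of replicates 1, 2 and 3, and of 30, 2 and 31 across auxin cells. Of 363 replicate 2 control cells, 0 reached the median of 30 UMIs of the control cells of replicates 1 and 3, and 23 (6.34%) reached their 10th percentile of 18 UMIs. At least 4 of the 9 factors were detected in 98.8% and 100% of control cells of replicates 1 and 3, and in 20.4% of those of replicate 2, where 10.2% of control cells and 22.4% of auxin cells had a UMI of none. Gene by gene, 0 of the 363 control cells of replicate 2 reached the Nanog median of the others (9 UMIs) and 1 reached that of Tfcp2l1 (4 UMIs), whereas 17.1% reached that of Zfp42 (4 UMIs), 22.3% that of Nr0b1 (2.5 UMIs) and 21.5% that of Esrrb (1 UMI).

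Other genes of the naive network were lower in replicate 2 as well. Of 21 genes of the extended network, 11 were lower in all plates of replicate 2 (5.61% of all genes) and 2 were higher (9.18%), with a median log2 ratio of -1.57. The widest gaps were in Jam2, a junctional adhesion gene (-5.71), Klf4, a LIF target and reprogramming factor (-5.19), and Socs3, the feedback inhibitor of STAT3 signalling (-4.53). The 2 higher genes were the transcription factor gene Tfe3 and the NODAL inhibitor gene Lefty1, named after their values had been seen. Of 11 core pluripotency genes tested, 3 were lower (5.61% of all genes) and 4 higher (9.18%), with a median of 0.00. Those with the widest gaps were Utf1 (3.13), Pou5f1 (-2.95) and the RNA-binding protein gene Lin28a (2.71). For Pou5f1 the ratio was -5.16 over replicate 1 and -0.74 over replicate 3, and the cause of this was not tested.

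Formative and primed genes went the other way. Of 9 genes tested, 6 were higher in all plates of replicate 2 (9.18% of all genes were) and 0 were lower, with a median log2 ratio of 4.10. Lef1, a transcription factor of WNT signalling, had 2.11 and 12.5 CPM in control cells of replicates 1 and 3 and 307 CPM in replicate 2 (5.53). Pou3f1, a POU factor of the primed epiblast, had 0.943 and 4.78 CPM against 86.4 CPM (5.20), and the de novo methyltransferase gene Dnmt3a had 11.4 and 36.3 CPM against 636 CPM (4.65). Among 14 upstream signal and brake genes, 2 were lower (5.61% of all genes) and 3 higher (9.18%), with a median of 0.31. The widest gaps were in the ERK phosphatase gene Dusp6 (3.84), the WNT target Axin2 (-2.35) and the ERK gene Mapk3 (2.06). Markers of other lineages summed to 28.3 to 75.6 CPM for 4 neuroectoderm genes, 8.32 to 24.8 CPM for 7 primitive endoderm genes, 1.17 to 32.6 CPM for 5 mesendoderm genes and 3.08 to 15.1 CPM for 5 trophectoderm genes across the 6 sums. Among the neuroectoderm genes, Pax6 was higher in all plates of replicate 2 (13.2 to 22.8 against 0.36 to 2.31 CPM, 14.9-fold) and Olig2 lower (5.40 to 20.6 against 23.0 to 59.7 CPM). The mesendoderm genes summed to 1.17 and 2.96 CPM in replicate 2 and 16.3 to 32.6 CPM in the other sums. Of the 4 tested, 1 was lower in all plates of replicate 2 (5.61% of all genes), namely Gsc (0 to 0.88 against 11.3 to 20.8 CPM, log2 ratio -6.59), and 3 overlapped. The part of these genes in the results was not tested.

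**Figure D3:**
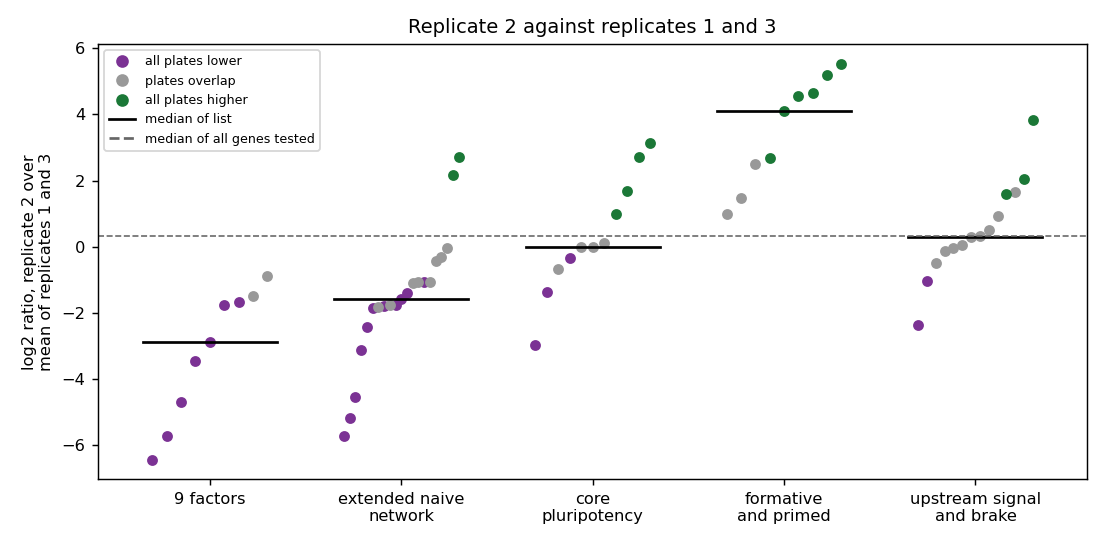
Log2 ratio of replicate 2 over the mean of replicates 1 and 3 for each gene tested, in the 9 factors and 4 lists of related genes, 1 point per gene, coloured by whether its plates separate. The 9 factors have a median of -2.89 and the formative and primed genes one of 4.10, on either side of the median of all genes (0.33, dashed).

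Spread between cells was described by the variance over the mean of the thinned counts, which is 1 for pure counting noise. Its median over 9396 genes (those averaging 1 count or more in a cell) was 2.02 to 2.61 in the 6 sets. Dppa3 and Nr0b1 had counts more uneven than this in all 6 sets. Across control cells of replicates 1, 2 and 3, Dppa3 had 10.1, 4.36 and 4.99 and Nr0b1 had 6.00, 5.63 and 3.68, and the top 10% of cells held 75.0 to 92.0% of the Dppa3 UMIs in every set. In control cells Nanog (4.19, 2.10 and 3.83) and Tfcp2l1 (3.15, 1.93 and 2.66) were lowest in replicate 2, where their means were lower too, but in auxin cells Nanog was not (3.69, 3.94 and 3.44). The coefficient of variation, which rises as a mean falls, went from 66.6 and 61.3% in replicates 1 and 3 to 142% in replicate 2 for Nanog, and from 79.2 and 68.8% to 500% for Tfcp2l1.

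Among control cells of replicate 2, those that held more of one factor tended to hold more of the others. For raw counts the Spearman correlation averaged over the 36 pairs was 0.16, 0.20 and 0.09 across control cells of replicates 1, 2 and 3, and 0.13, 0.09 and 0.33 across auxin cells. These values move with depth, because the mean over all pairs of 9396 genes was itself 0.06 to 0.21. With the UMI count of the cell held constant, the mean of all gene pairs fell to 0.01 to 0.02, and that of the 36 pairs was 0.05, 0.19 and 0.01 across control cells of replicates 1, 2 and 3 and 0.06, 0.07 and 0.14 across auxin cells. In control cells of replicate 2 all 36 partial correlations were above 0, from 0.06 (Nanog and Zfp42) to 0.35 (Nr0b1 and Nr5a2), against 24 of 36 in replicate 1 and 19 of 36 in replicate 3. Auxin cells of replicate 2 had 24 of 36 above 0, no more than those of replicates 1 and 3 (28 and 27), and their plate means were 0.06 to 0.09. The mean in single plates was 0.16 to 0.20 in the 4 control plates of replicate 2, and 0.01 to 0.07 in the 3 control plates of the others, so the level was similar within plates. The auxin cells of replicate 3 (0.14, from 84 cells of 1 plate) reached nearly this level, and no test was made for replicate 2 against the others.

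**Figure D4:**
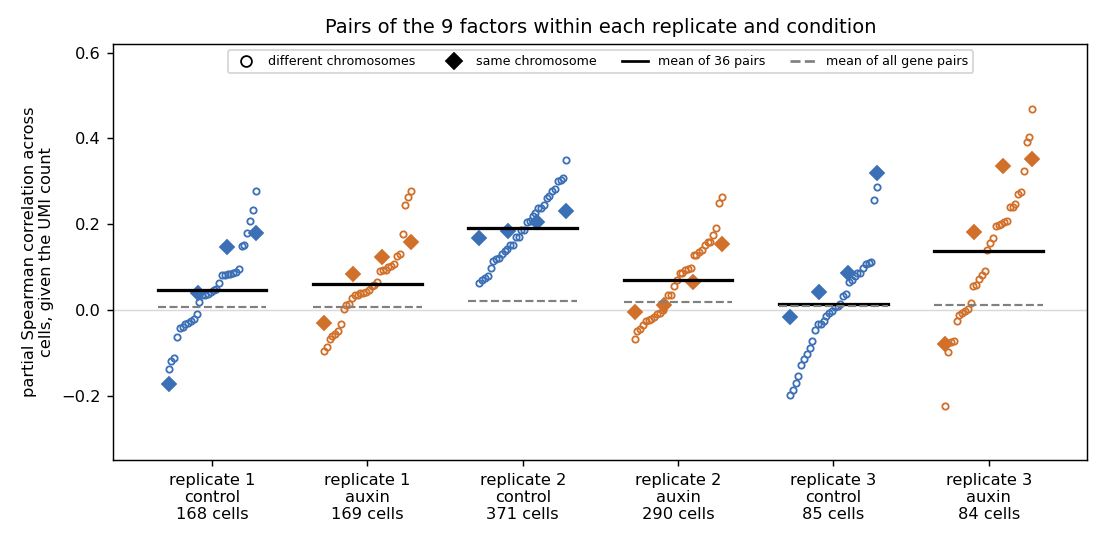
Partial Spearman correlation across cells, given the UMI count, for the 36 pairs of factors in each replicate and condition, with the mean (solid line) and the mean over all gene pairs (dashed). Filled diamonds are the 4 pairs on a shared chromosome. The control cells of replicate 2 have all pairs above 0 and a mean of 0.19.

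Pooling the replicates gave a different picture. Over the 624 control cells of all replicates, the mean partial correlation was 0.36, and it was 0.05 over the 253 control cells of replicates 1 and 3. Tfcp2l1 and Tbx3 reached 0.81 in the pool and 0.09 without replicate 2, and Nanog and Tfcp2l1 0.74 and 0.20. In auxin cells the means were 0.39 and 0.08. The strongest pairs within replicates were Nanog and Tbx3, with a mean partial correlation of 0.22 over the 6 sets, and Tfcp2l1 and Prdm14, with 0.21, and both were above 0 in 6 of 6 sets.

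The study asked whether loss of cohesin changes the coexpression of genes in separate accessible chromatin domains, within and between chromosomes. Of the 36 pairs, 4 share a chromosome, and their domains were not assigned here. Nanog and Dppa3 lie 77217 bases apart and may share a domain. The gaps of the others were 18.2, 105.5 and 123.7 Mb. Across control cells of replicates 1, 2 and 3 the 4 pairs had a mean partial correlation of 0.05, 0.20 and 0.11. For the 32 pairs on different chromosomes it was 0.05, 0.19 and 0.00. Across auxin cells the 4 pairs had 0.08, 0.06 and 0.20, against 0.06, 0.07 and 0.13 for the 32 pairs. Nanog and Dppa3, neighbours on chromosome 6, had partial correlations of 0.15, 0.18 and 0.09 in control cells of replicates 1, 2 and 3. In auxin cells they had -0.03, -0.01 and -0.08. On thinned counts their differences after auxin were -0.33, -0.04 and -0.01, so little was left in replicates 2 and 3. The partial correlation of Tfcp2l1 and Nr5a2 differed the other way, by 0.26, -0.01 and 0.37 after auxin. The difference in partial correlation of Nanog and Dppa3 was negative in 3 of 3 replicates. So it was for 3 of the 36 pairs and for 12.1% of all 44137710 pairs of genes, and the count of pairs was no higher than the background. It was positive in 3 of 3 for 1 of the 36 pairs and for 12.3% of all pairs. Over all 36 pairs, the mean correlation of raw counts was higher after auxin by 0.03 ± 0.18 (SD, n = 3; two-sided p = 1.00 by the exact permutation of signs, where 3 replicates cannot give less than 0.25). The differences were -0.03, -0.11 and 0.23 in replicates 1, 2 and 3. With the UMI count held constant they were 0.01, -0.12 and 0.12 (mean 0.01), and on thinned counts 0.03, -0.08 and 0.07 (mean 0.01), so the sign in replicate 1 turned.

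Auxin changed none of the 9 factors past the threshold in the fit without replicates as a block. The edgeR quasi-likelihood test on the 6 sums called 0 of 9 factors and 0 of 17514 genes (0.0%) at an adjusted p of 0.05, with 0 factors and 33 genes at an unadjusted p below 0.05, and DESeq2 called 0 of either. Standard errors on the log2 scale reached 1.397 for Prdm14 and 1.70 for Tfcp2l1 in this fit. Blocking on replicate, edgeR called 3 genes (0.0171%) and again 0 factors, and 3 of the 9 had an unadjusted p below 0.05, against 5.92% of all genes. Control and auxin sums of 1 replicate deviated together, and the errors below come from this fit.

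Prdm14 showed the clearest difference. Its CPM went from 109 to 59.2 in replicate 1, from 5.34 to 2.00 in replicate 2 and from 116 to 69.8 in replicate 3, lower after auxin in 3 of 3 replicates. The log2 fold change was -0.99 ± 0.16 (SE; edgeR with the block, adjusted p = 0.224), and -0.83 ± 1.397 without the block (adjusted p = 1.00). DESeq2 with the block called it (-1.01 ± 0.18, adjusted p = 2.30e-05), with 57 genes called of the 8686 that had an adjusted p (0.656%), and edgeR with the block called it without replicate 2 (-0.82 ± 0.15, adjusted p = 0.0236, with 32 genes or 0.191% called). Without replicate 1 or 3 the blocked edgeR adjusted p was 0.150 and 0.630. With all 4 plates of replicate 3 it was 0.536 as annotated and 0.985 with the source-value placement. The share of cells with Prdm14 was lower by 23.5, 5.08 and 18.9 percentage points in replicates 1, 2 and 3. The mean was -15.8 ± 9.57 (SD, n = 3, p = 0.25 by exact permutation of signs, the lowest value possible here). With all 4 plates of replicate 3, its difference was -12.1 points as annotated and -7.06 with the source-value placement. Within replicate 2 its 4 auxin plates (1.63 to 2.36 CPM) lay below its 4 control plates (3.83 to 9.43 CPM), as they did for Nanog and Esrrb, 3 of 9 factors against 5.78% of all genes tested, and 0 factors were higher in all auxin plates (7.47%). Plates are not replicates of a condition here.

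In CPM, Esrrb was also lower after auxin in 3 of 3 replicates, a pattern that 2 of 9 factors and 13.7% of all genes showed. Higher in all 3 were 0 factors and 15.6% of all genes. The share of cells with Esrrb differed by 1.45, -12.8 and -19.1 percentage points at 20000 UMIs, so replicate 1 went the other way. The log2 ratio of Esrrb in auxin over control was -0.12, -1.39 and -0.57 in replicates 1, 2 and 3. The blocked estimate of -0.69 ± 0.22 had an adjusted p of 0.739 (edgeR). It was -0.97, -0.34 and -0.77 without replicates 1, 2 and 3. Dppa3 had -1.19, -0.56 and 0.03, and a blocked estimate of -0.60 ± 0.23 (edgeR adjusted p = 0.816). This estimate was -0.28, -0.62 and -0.90 without replicates 1, 2 and 3. The share of cells with Dppa3 was lower by 5.44, 4.72 and 4.67 percentage points in the 3 replicates (mean -4.94 ± 0.43, SD, n = 3, exact sign-flip permutation p = 0.25) at 20000 UMIs. It turned in replicate 3 under other settings, to 2.77 points higher with all UMIs, 6.16 at 40000 UMIs and 1.89 with all 4 plates as annotated, and the means were then -2.86, -2.39 and -2.76 points. The share with Tbx3 differed by -7.69 ± 3.89 points (SD, n = 3, exact p = 0.25). Its mean was -3.61 with all UMIs, where replicate 2 was 0.47 higher, -1.35 at 40000 UMIs, and -3.50 with the source-value placement, where replicate 3 was 1.24 higher.

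The other factors had no shared direction in CPM. Nanog had log2 ratios of 0.18, -0.59 and -0.08, with a blocked estimate of -0.17 ± 0.14. Zfp42 had 0.14, -0.19 and 0.39 (0.09 ± 0.13), Tfcp2l1 -0.06, -0.70 and 0.14 (-0.16 ± 0.15), Nr0b1 0.27, -0.82 and -0.36 (-0.31 ± 0.18), Tbx3 -0.33, 0.27 and -0.62 (-0.30 ± 0.16) and Nr5a2 0.77, -1.22 and 0.27 (-0.08 ± 0.33). Without replicate 2 the blocked estimates were 0.05 for Nanog, 0.25 for Zfp42, 0.03 for Tfcp2l1, -0.04 for Nr0b1, -0.48 for Tbx3 and 0.51 for Nr5a2. Whether the response of replicate 2 differed from that of the others was not tested, since it is a single replicate. Median differences over the 9 factors were -3.89 ± 4.67 percentage points for the share of cells (SD, n = 3; exact p = 0.50) and 28.1 ± 48.8 points for the coefficient of variation (exact p = 0.50). Both rested on single replicates, with the share at -1.86 without replicate 2 and -6.44 without replicate 1, and the coefficient of variation at 0.51 and 46.7 points.

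**Figure D5:**
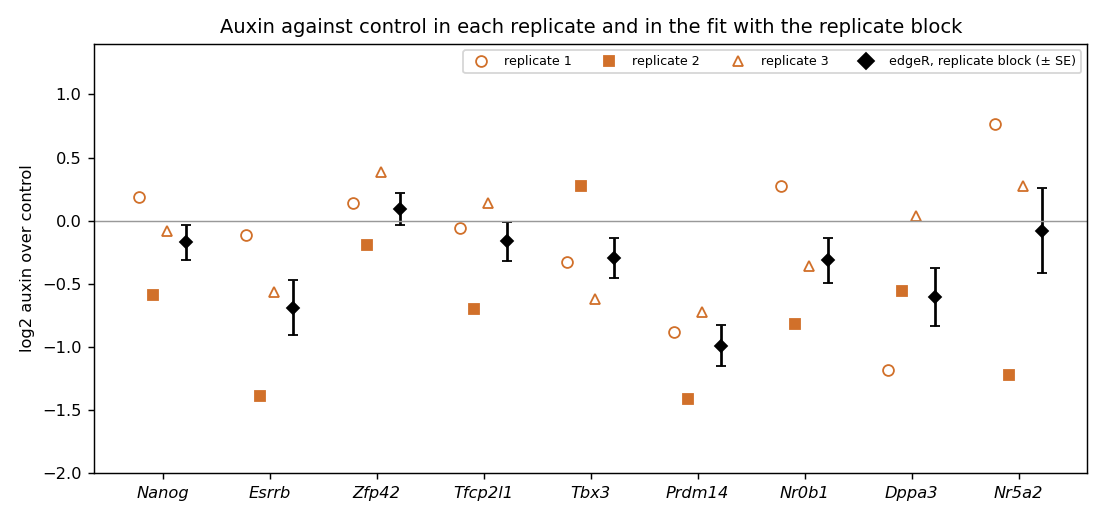
Log2 ratio of auxin over control CPM for each factor in the 3 replicates (orange symbols) and the edgeR estimate with the replicate block ± SE (black diamonds). Prdm14 and Esrrb lie below 0 in all 3 replicates, with estimates of -0.99 and -0.69.

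The 8 genes of the 2-cell-like state, none of which had enough counts to be tested, summed to 0.67 CPM in control and 19.0 CPM in auxin cells of replicate 1, 0.33 and 5.68 CPM in replicate 3, and 0.31 and 0.10 CPM in replicate 2. Their part in the auxin results was not tested.

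Of the related lists, edgeR with the block called 2 of 21 genes of the extended naive network and 0 in the other 3 lists. Over all genes tested this fit called 3 of 17514 (0.0171%). The 2 genes were both lower after auxin in 3 of 3 replicates. Klf4 had -1.26 ± 0.13 (edgeR adjusted p = 0.0418), and its CPM went from 141 to 64.5, from 2.75 to 1.17 and from 72.7 to 27.5 across replicates 1, 2 and 3. Klf5, a Kruppel-like factor with overlapping function, had -1.24 ± 0.11 (edgeR adjusted p = 0.0211), from 303 to 153, from 63.8 to 23.3 and from 304 to 127 CPM. Neither passed in the fit without the block. With the block, Klf4 lost its call without replicate 1 (edgeR adjusted p = 0.0731), and both lost it without replicate 3 (0.454 and 0.424) and with the source-value placement of the 2 plates (0.985 each). In the extended naive network 9 of the 21 genes were lower in 3 of 3 replicates and 2 were higher, against 13.7% and 15.6% of all genes. Among the 14 upstream signal and brake genes 2 were lower and 7 higher. Of 11 core pluripotency genes 4 were lower and 2 higher, and of 9 formative and primed genes 2 and 2.

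The genes whose counts varied most like each factor from cell to cell were sought by mean Spearman correlation of thinned counts over the 6 sets. Nanog was most like Calcoco2 (0.23), Cd9 (0.22) and Tdgf1 (0.20). Tfcp2l1 and Prdm14 were each most like the other (0.19), and Prdm14 was also near Degs1 (0.18) and Nanog (0.15), while Tfcp2l1 was near Cndp2 (0.15) and Rbpj (0.14). Nr0b1 was most like Tdh (0.26), a threonine dehydrogenase gene of naive cells, then Enox1 (0.19) and Cacybp (0.18), and Nr5a2 was most like Tdh (0.14) and Setd5 (0.13). Dppa3 was most like Skp1a (0.22), Calcoco2 and Plekha4 (0.20 each). Zfp42 was near Ostf1 (0.17), Mt1 (0.16) and Mettl8 (0.15), Tbx3 near Klf2 (0.15), Mgmt (0.14) and Ptpn14 (0.13), and Esrrb near Sh3gl2, Exog (0.13 each) and Mtus2 (0.12). These are the highest of 9396 values per factor and are weak.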

How the data were processed

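Smart-SCRB libraries from 1536 wells on 16 plates were analysed. The reads were aligned to mm10 per the labels, and the authors deposited UMI counts, as whole numbers with no normalization, for every gene and well. The aligner and annotation are not given in the sources used here. The deposited annotation also held the counts of detected genes and the percent of ERCC reads of each well. The condition of a plate came from that annotation. Wells are named by plate and barcode, since 242 of 287 barcodes occur on more than 1 plate. No doublet caller was run on these sorted wells. ERCC (92) and transgene (11) rows were left out of CPM.

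UMIs of each replicate and condition were added up and tested with edgeR 4.0.16 (TMM, filterByExpr, quasi-likelihood test, Benjamini-Hochberg over 17514 genes, threshold 0.05), with DESeq2 1.42.0 as an alternative (R 4.3.3). The 3 replicates were labelled as separate samples, and p-values measure the spread between them. Control and auxin sums of the same replicate deviated together (correlations of 0.87, 0.82 and 0.67), so the replicate number pairs them. Cells were thinned once with a fixed seed, and those under 20000 UMIs were left out. Scripts were tested on simulated data. Ratios of replicate 2 used CPM with counts under 3 set to 3, which touched none of the 9 factors. The 9 factors, the lists and the tests were chosen with earlier results of these data known. All 9 are reported. Of the other genes, those named were the 3 most correlated with each factor (1 is not reported here), and per list those past the threshold and the 3 with the widest gap in replicate 2. Tfe3, Lefty1, Sox2, Dppa5a, Sall4, Tdgf1, Pax6, Olig2, Gsc and Cd3e were named outside this rule, after their values had been seen.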

Additional observations from a re-analysis of the deposited data

How the results depend on the processing

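Of 87 summary values recomputed under other settings, 75 counted as unchanged. For the factors called this meant an equal count. For fold changes, ratios and the replicate 2 correlation it meant a shift smaller than the SD between replicates. For the other differences after auxin it meant the same sign. The count of factors called after auxin was 1 (Prdm14) under DESeq2 with the replicate block and under edgeR with the block without replicate 2, and 0 otherwise, with 0 to 1 over the fits that left out a replicate. The median log2 fold change of the factors was -0.07, -0.30 with the replicate block and -0.33 to 0.03 over all settings. The ratio of replicate 2 to the others was -2.89, -2.36 from control sums and -3.41 from auxin sums, and -2.55 to -3.22 when replicate 3 or 1 was left out. Scaling moved the median ratio of all genes from 0.33 to 0.13 (DESeq2 factors) and 0.14 (TMM), and that of the factors to -3.08 and -3.07. Scaling to ERCC raised the median log2 fold change of all genes after auxin to 0.17 and that of the factors from -0.07 to -0.02.

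The difference in mean correlation after auxin, 0.03, turned to -0.0730 without replicate 3 and to -0.01 with all 4 plates of replicate 3 under either placement of the 2 plates (-0.0107 and -0.0113), and ran from -0.07 to 0.10 over the fits without a replicate. The difference in mean correlation between replicate 2 and the others, -0.03 on raw counts, was 0.0682 on CPM per cell, 0.0636 on thinned counts, 0.0651 with the UMI count held constant, 0.0665 for the 6 factors averaging 1 count or more in every set and 0.0639 within plates with the UMI count held constant. The fits of the block with a replicate left out or with all plates, and the within-plate correlations, were chosen after the data had been seen. Of 396 values of single factors, 40 had another sign than the value under the main setting and passed no threshold. For fold changes the main setting was the fit without the block, not the blocked estimates given above. The blocked fit called 3 genes, 14 without replicate 1, 32 without replicate 2, 2 without replicate 3 and 0 with the source-value placement. The cause was not tested.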

Other observations

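The 2 plates of replicate 3 whose condition could not be settled held 77 and 91 cells. The plate annotated as auxin had 511 CPM of Nanog, 341 CPM of Tfcp2l1 and 104 CPM of Tbx3, and the plate annotated as control 430, 291 and 119 CPM. Prdm14 had 82.9 CPM in the plate annotated as auxin and 87.0 CPM in the plate annotated as control, both between the settled auxin plate (69.8 CPM) and the settled control plate (116 CPM). Esrrb had 70.7 and 104 CPM and Dppa3 51.8 and 22.1 CPM in the same order.

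Across the control cells of replicate 2, the mean Spearman correlation of thinned counts with 8 formative and primed genes ran from -0.10 (Tbx3) to -0.01 (Nr0b1), and it lay between -0.06 and 0.06 for the 9 factors in control cells of replicates 1 and 3. With the extended naive network, the same correlation was 0.06 to 0.13 for the 9 factors in control cells of replicate 2 and -0.04 to 0.07 in those of replicates 1 and 3, and the ranges overlapped. In its auxin cells the correlations with formative genes ran from -0.08 to 0.06, above 0 for Nanog, Nr0b1, Zfp42 and Prdm14, and those with the extended network from -0.01 to 0.08. These values are weak and describe cells of 1 replicate.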
